A study of Homo sapiens with 4 samples.

Results

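Mitochondrial chaperones and matrix proteases fold the proteins imported into mitochondria and clear the damaged ones. A group of 10 such genes was followed in HT29 and LIM1215 cells, 2 established lines from human colorectal cancers, in which TMEM161A, a gene for a transmembrane protein, had been targeted with a small interfering RNA (siRNA). The genes were taken by symbol from the 60658 Ensembl identifiers of each library: HSPD1, HSPE1, HSPA9, GRPEL1, DNAJA3, TRAP1, LONP1, CLPP, CLPX and HTRA2. Each matched 1 identifier, and all 10 passed the filter on low values, a mean of at least 1 FPKM (fragments scaled to gene length and to the fragments of the library) over the 4 libraries, which 14803 genes passed.

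The 4 groups were HT29 with a control siRNA that has no gene target, HT29 with the TMEM161A siRNA, and the same pair in LIM1215. The titles name that siRNA si2 in both lines, and the labels give no siRNA dose, sequence or time after transfection. With 1 library per group there was no replicate and no test, so each difference below compares 2 libraries and the other line is the only repeat. Differences are given as log2 ratios of FPKM + 1, knockdown over control within a line, a scale that understates changes of low genes. A gene was counted as past the threshold at 1.5-fold.

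Imported proteins reach the mitochondrial matrix unfolded. HSPA9 (mortalin), the matrix HSP70, pulls them in and starts their folding, with DNAJA3 as J-domain partner and GRPEL1 as nucleotide exchange factor. HSPD1 (HSP60) forms the folding chamber that HSPE1 (HSP10) caps, and TRAP1 is the mitochondrial HSP90. LONP1 and the complex of the unfoldase CLPX with the peptidase CLPP degrade matrix proteins, while HTRA2 is a serine protease of the intermembrane space. When misfolded proteins build up in the matrix, mammalian cells can raise the transcripts of several of these genes, a programme called the mitochondrial unfolded protein response, so their levels are used as a readout of protein stress in this organelle.

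HSPD1 and HSPE1 are transcribed head to head, and the sequence between an upstream HSPD1 start and the HSPE1 start is shown first because it precedes both starts. It lies within the GENCODE spans of both genes, which also count further transcripts. Their GENCODE canonical starts on chromosome 2, 197499840 for HSPD1 (minus strand) and 197500379 for HSPE1 (plus strand), have 538 bases between them. RefSeq lists a further HSPD1 start at 197500274, which leaves 104 bases. Those 104 bases (chr2:197500275-197500378, GRCh38, RefSeq promoter table, plus strand) carry an E-box, CACGTG, and a match to the NRF1-like pattern, GCGC and GCGC with 2 bases between, both in capitals. The stretch named HSPD1 (chr2:197500041-197500090, minus strand) lies upstream of the canonical HSPD1 start, and its capitals mark heat shock units, GAA and TTC in turn with 2 bases between, in 2 overlapping runs of 3.
HSPD1 to HSPE1: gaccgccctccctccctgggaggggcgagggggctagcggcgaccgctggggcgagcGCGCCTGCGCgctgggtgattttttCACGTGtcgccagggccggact
HSPD1: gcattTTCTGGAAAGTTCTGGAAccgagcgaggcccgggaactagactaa

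The promoters of HSPA9, LONP1 and TRAP1 are shown because they hold other stress or growth motifs within the 250 bases before the start. HSPA9 (chr5:138575402-138575501, minus strand) has an E-box in capitals, and LONP1 (chr19:5720147-5720386, minus strand) has 2 E-boxes and an NRF1-like match. In TRAP1 (chr16:3717525-3717644, minus strand) the capitals mark a cyclic AMP response element, TGACGTCA. All end 1 base before the RefSeq start.
HSPA9: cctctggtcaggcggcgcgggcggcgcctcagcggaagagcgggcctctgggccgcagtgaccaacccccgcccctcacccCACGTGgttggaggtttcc
LONP1: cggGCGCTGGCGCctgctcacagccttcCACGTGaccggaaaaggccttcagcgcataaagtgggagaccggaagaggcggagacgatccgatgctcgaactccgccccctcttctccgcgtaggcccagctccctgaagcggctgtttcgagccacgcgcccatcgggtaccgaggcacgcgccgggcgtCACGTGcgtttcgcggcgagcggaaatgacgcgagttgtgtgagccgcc
TRAP1: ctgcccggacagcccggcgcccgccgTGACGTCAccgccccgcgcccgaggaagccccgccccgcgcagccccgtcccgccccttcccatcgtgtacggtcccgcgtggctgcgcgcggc

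For contrast, a promoter of the endoplasmic reticulum (ER) relative HSPA5 (chr9:125241344-125241443, minus strand) is shown with its ER stress element, CCAAT and CCACG with 9 bases between, in capitals. The cytosolic relative HSPA8 (chr11:123062137-123062236, minus strand) is shown with its heat shock units in capitals. Between knockdown and control, HSPA5 differed by 1.5-fold in both lines and HSPA8 in LIM1215 only, as given further on.
HSPA5: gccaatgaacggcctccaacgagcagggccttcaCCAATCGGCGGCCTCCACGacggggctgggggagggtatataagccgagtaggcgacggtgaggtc
HSPA8: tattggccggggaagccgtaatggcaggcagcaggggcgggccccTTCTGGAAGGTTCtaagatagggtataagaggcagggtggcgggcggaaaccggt

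RefSeq promoter windows of 300 bases, 250 before and 50 after a start, were matched for 8 of the 10 genes, in 11 windows; GRPEL1 and CLPP had no window. Both strands were searched. The E-box was found for 4 genes (HSPD1, HSPE1, HSPA9 and LONP1), in 4 of 11 windows, against 7.26% of all 35116 windows. The NRF1-like pattern was found for 5 genes (HSPD1, HSPE1, DNAJA3, LONP1 and CLPX), in 6 of 11 windows, against 8.32%. HSPD1 and HSPE1 share 1 E-box and 1 NRF1-like match, so these are not separate findings. Runs of 3 heat shock units were in 1 of 11 windows, that of HSPD1, against 0.490% of all windows. The cyclic AMP response element was in 1, that of TRAP1, against 1.85%. The ER stress element (0.0769% of all windows) and the amino acid response element TGATGNAAT (0.991%) were in none of the 11. Among relatives of the 10 genes, the ER stress element was in the windows of HSPA5 and HSP90B1, and the heat shock units in those of HSPA8, HSP90AA1, HSP90AB1 and DNAJA1. Motifs found for the 10 genes were not limited to them: the E-box was also in HSP90B1, the NRF1-like pattern in CCT3, CCT5 and HSP90AA1, and the cyclic AMP response element in HSP90AB1. TOMM20, a gene of mitochondrial protein import, had both an E-box and an NRF1-like match. A match is a run of letters and does not show that a factor binds there.

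Facts of the libraries as a whole were brief. An FPKM of 1 corresponded to an estimated 18.11 to 21.54 fragments per kilobase of length, counted after 202 or 203 bases were subtracted from the gene's length. The 10 genes thus rested on 871 to 36966 estimated fragments per gene and library. TMEM161A itself was at 10.9% of control in HT29 and 19.4% in LIM1215. Of 9 markers of colorectal epithelium, all were at 67.8 FPKM or more in both LIM1215 libraries. In the libraries labelled HT29, VIL1, KRT20, CDX1 and LGALS4 lay at or below 0.815 FPKM, and the other 5 at 8.04 or more. Such low levels of these 4 markers are unusual for this line. Whether the cells were HT29 was not tested, and HT29 here stands for the libraries so labelled. PTPRC (leukocytes) was listed at 0 in all 4 libraries, COL1A2 and PECAM1 reached no more than 0.438 FPKM, and COL1A1 lay between 4.83 and 17.6 FPKM.

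In the knockdown libraries the 10 genes stood at 83.7% to 124% of their controls. In neither line did any of the 10 pass 1.5-fold, higher or lower. Over all genes tested, the HT29 pair had 7.87% higher and 6.91% lower by 1.5-fold, and the LIM1215 pair 6.63% and 6.18%. None of the 10 passed 2-fold, against 3.8% of all genes in HT29 and 3.46% in LIM1215, both directions together. Since so few genes passed either threshold, a count of 0 among 10 genes does not set them apart from the others. The 10 had a median log2 ratio of -0.0028 in the HT29 pair and 0.02 in the LIM1215 pair, beside 0.04 and 0.02 over all genes tested. The sign of the HT29 median held under every scaling tried, whereas the LIM1215 median turned negative under 3 of them, -0.0164 at the lowest. The mean over the 10 had the opposite sign to the median in each line, 0.0156 in HT29 and -0.0260 in LIM1215. The lowest and highest of the 10 were CLPX (-0.22) and TRAP1 (0.31) in HT29, and GRPEL1 (-0.25) and HTRA2 (0.17) in LIM1215. Of all genes tested, 61.2% in HT29 and 55.9% in LIM1215 had a log2 ratio no larger in size than the largest of the 10.

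**Figure D1:**
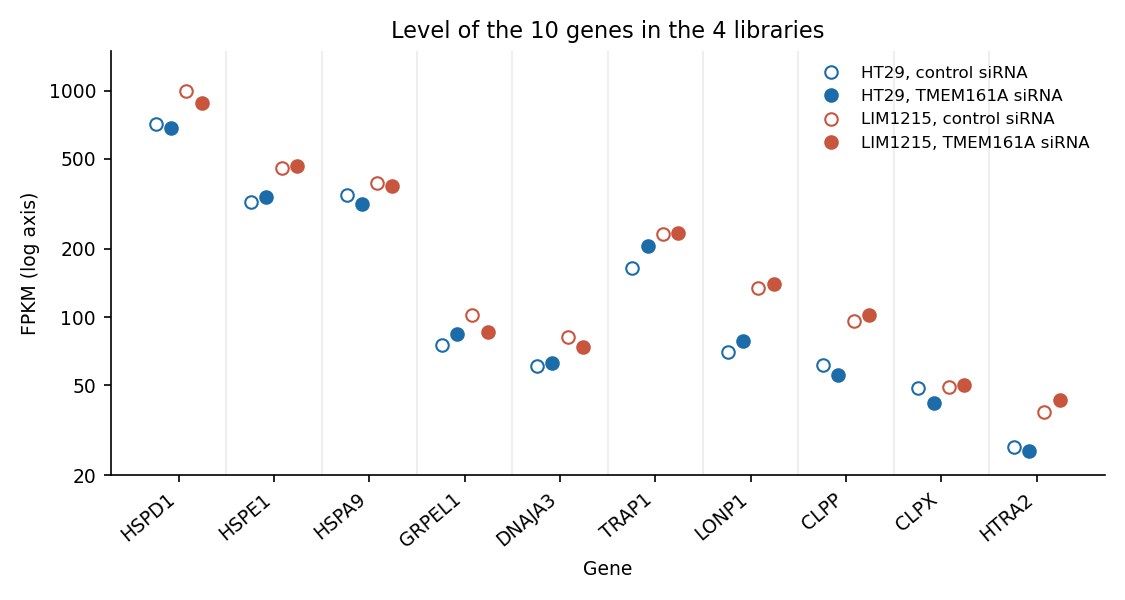
FPKM (log axis) of the 10 genes in the 4 libraries, open circles for the control siRNA and filled circles for the TMEM161A siRNA, blue for HT29 and red for LIM1215. HSPD1 was the highest and HTRA2 the lowest in every library, and open and filled circles of a line lie close together.

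The chaperonin genes were among the most abundant of the group. HSPD1 (ENSG00000144381, chr2:197486584-197516737, minus strand, GRCh38, GENCODE release 44) was measured at 711 FPKM in HT29 control cells and 682 after knockdown, and at 999.6 and 880.0 FPKM in the LIM1215 pair. Of HSPD1 and HSPE1, only HSPD1 was lower in the knockdown library of both lines. The level was 95.8% of control in HT29, with a 95% counting interval of 94.3% to 97.3%, and 88.0% in LIM1215 (86.8% to 89.3%). Here and below these intervals come from estimated fragments by the exact Clopper-Pearson method; they cover counting error only, and how far cultures vary was not measured. The log2 ratios were -0.06 and -0.18, and 37.0% of all genes tested in HT29 and 25.7% in LIM1215 had a lower one.

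HSPE1, the lid of the same chamber (ENSG00000115541, chr2:197500140-197503449, plus strand), had an FPKM of 321, 338, 455 and 463 in the same order of libraries. It stood at 105% of control in HT29 (99.6% to 111%) and 102% in LIM1215 (96.7% to 107%), so both intervals included no change. Its log2 ratios of 0.07 and 0.02 changed sign in each line under other scalings. Per length, HSPD1 exceeded HSPE1 2.22 times in the HT29 control and 2.198 times in the LIM1215 control, and 2.02 and 1.90 times in the knockdown libraries. HSPD1 was thus lower relative to its head-to-head partner in both knockdown libraries, by a small step whose variation between cultures is unknown. The span of HSPD1 covers all 3310 bases of HSPE1 on the opposite strand, so both levels depend on how shared fragments were assigned. HSPE1-MOB4, a readthrough gene that shares HSPE1 exons, was at 12.7 FPKM in HT29 control cells and 6.06 after knockdown, against 7.08 and 7.07 in LIM1215. Adding its level to that of HSPE1 gave log2 ratios of 0.04 (HT29) and 0.02 (LIM1215). The 18 copies of HSPD1, taken by symbol, summed to at most 1.49 FPKM in a library and the 26 of HSPE1 to at most 4.15. These sums also depend on how shared fragments were assigned. They therefore cannot show how much signal the copies took.

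HSPA9 (ENSG00000113013, chr5:138553756-138575675, minus strand) had an FPKM of 346 and 316 in the HT29 control and knockdown and of 392 and 379 in those of LIM1215. It was lower in both knockdown libraries, at 91.5% of control in HT29 (90.02% to 93.0%) and 96.8% in LIM1215 (95.3% to 98.4%). The log2 ratios were -0.13 and -0.05, and they kept their sign under every alternative tried. HSPA9 and HSPD1 were the 2 genes of the 10 that were lower in both lines.

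The partners of HSPA9 went opposite ways in the lines. GRPEL1, the exchange factor that lets HSPA9 release ADP (ENSG00000109519, chr4:7058671-7068085, minus strand), had 75.2 FPKM in the HT29 control and 84.2 in the knockdown, against 102 and 85.5 in LIM1215. It was at 112% of control in HT29 (107% to 117%) and 83.7% in LIM1215 (80.2% to 87.3%), the lowest of the 10 in LIM1215. DNAJA3, the J-domain partner (ENSG00000103423, chr16:4425805-4456775, plus strand), had 60.5 and 62.9 FPKM in HT29 and 81.3 and 73.8 in LIM1215. Its level was 104% of control in HT29 (99.1% to 109%) and 90.8% in LIM1215 (86.8% to 95.1%), and its HT29 log2 ratio of 0.06 turned negative under 2 scalings, to -0.05 at the lowest. Per length, HSPA9 exceeded GRPEL1 4.59 times in the HT29 control and 3.76 times in its knockdown, but 3.83 and 4.44 times in LIM1215. The ratio of chaperone to exchange factor differed in opposite directions in the lines, which was not tested.

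TRAP1 (ENSG00000126602, chr16:3651639-3717553, minus strand) showed the largest difference of the group on the deposited scale; after rescaling to a common sum, with or without mitochondrial DNA, CLPX in HT29 was farther from 0 (-0.30 and -0.33). Its FPKM was 165 in the HT29 control and 206 in the knockdown, and 234 and 236 in LIM1215. The HT29 level was 124% of control (121% to 128%), with a log2 ratio of 0.31 that ranged from 0.20 to 0.31 over the alternatives. In LIM1215 the level was 101% (97.996% to 104%) and the log2 ratio of 0.01 changed sign under other scalings. The HT29 knockdown thus came closer to the LIM1215 level than its control was. In HT29, 78.4% of all genes tested had a lower log2 ratio than TRAP1, so the difference was not an extreme one for that pair of libraries. DNASE1 lies over TRAP1 on the opposite strand at 6.52 to 15.7 FPKM, and the sources used here do not say if counting was strand-specific.

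Of the matrix proteases, LONP1 was higher and the subunits of the CLPXP complex lower in the HT29 knockdown. LONP1, a protease that also binds mitochondrial DNA (ENSG00000196365, chr19:5691834-5720572, minus strand), had 69.9 and 78.5 FPKM in HT29 and 135 and 139.8 in LIM1215. That is 112% of control in HT29 (108% to 117%) and 104% in LIM1215 (100.4% to 107%), higher in both lines under every alternative tried. The end of LONP1 overlaps RPL36, a ribosomal protein gene at 981 to 1327 FPKM, by 42 bases on the opposite strand.

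CLPP, the peptidase (ENSG00000125656, chr19:6361531-6370242, plus strand), had 61.5 and 55.6 FPKM in HT29 and 96.3 and 102 in LIM1215. It stood at 90.3% of control in HT29 (85.7% to 95.3%) and 106% in LIM1215 (101% to 110.4%). CLPX, the unfoldase that feeds it (ENSG00000166855, chr15:65148219-65185342, minus strand), had 48.7 and 41.8 FPKM in HT29 and 49.1 and 49.9 in LIM1215. With 85.8% of control (82.2% to 89.5%) it was the lowest of the 10 in HT29, beside 102% (97.3% to 106%) in LIM1215. The ratio of CLPX to CLPP differed more between the lines than between control and knockdown, at 0.792 and 0.752 in HT29 control and knockdown and 0.510 and 0.490 in LIM1215.

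HTRA2, outside the matrix (ENSG00000115317, chr2:74529596-74533350, plus strand), was the lowest of the 10, with 26.7 and 25.6 FPKM in HT29 and 38.1 and 43.0 in LIM1215. It stood at 95.7% of control in HT29 (87.0% to 105%) and 113% in LIM1215 (104% to 122%), the highest of the 10 in LIM1215. It shares 165 bases with AUP1 (124 to 141 FPKM) and 1093 with LOXL3, both on the opposite strand.

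**Figure D2:**
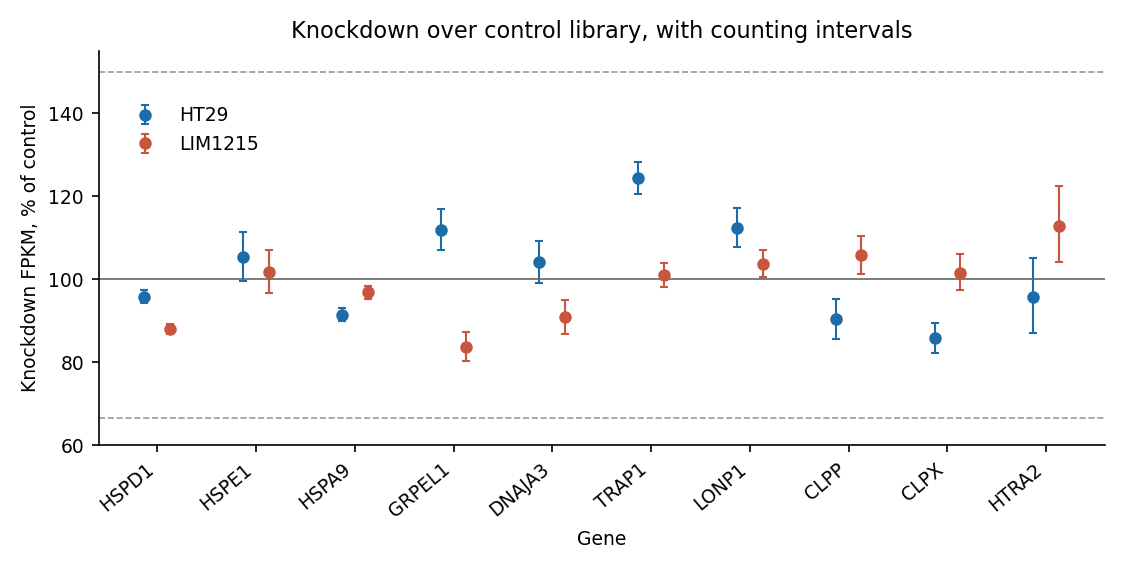
Knockdown FPKM as % of the control library for each gene, blue for HT29 and red for LIM1215, with 95% counting intervals as bars and 1.5-fold as dashed lines. All 20 values lie between 83.7% and 124%, and the blue and red points of GRPEL1, DNAJA3, CLPP, CLPX and HTRA2 stand on opposite sides of 100%.

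By direction, 3 of the 10 genes (HSPE1, TRAP1 and LONP1) were higher in both knockdown libraries, 2 (HSPD1 and HSPA9) were lower in both, and 5 went opposite ways. The counting interval lay above 100% of control for 3 genes and below it for 4 in HT29, and likewise for 3 and 4 genes in LIM1215. Of all 14803 genes tested, 7975 were higher and 6566 lower in HT29, and 7861 and 6870 in LIM1215. The shares of all genes with such intervals, or with the same direction in both lines, were not computed. These counts therefore do not set the 10 apart from other genes. Of the 20 log2 ratios, 15 had the same sign in all alternatives tried, the exceptions being HSPE1 in both lines, DNAJA3 in HT29, and TRAP1 and CLPX in LIM1215. Summed over the group, the FPKM was 1886 and 1889.7 in HT29 control and knockdown and 2582 and 2451 in LIM1215. HSPD1, HSPE1 and HSPA9 together held 70.2% to 73.1% of it in every library.

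**Figure D3:**
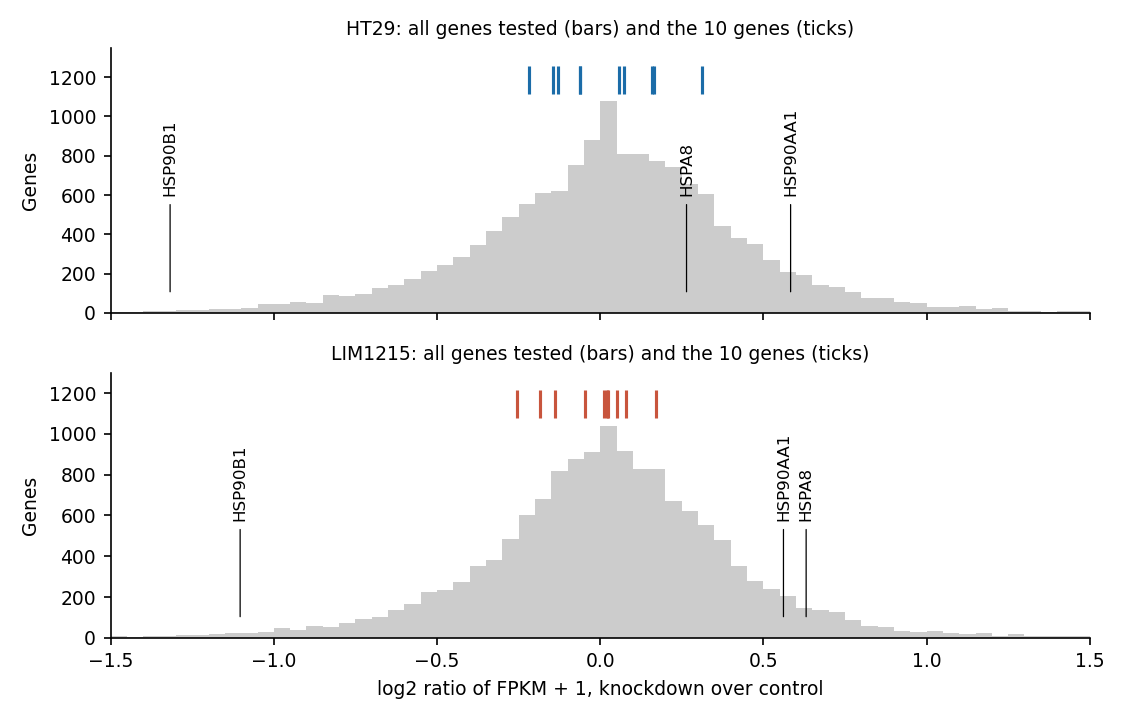
Number of genes by log2 ratio of FPKM + 1 (bars 0.05 wide) for all 14803 genes tested in HT29 (top) and LIM1215 (bottom), with a tick for each of the 10 genes and lines at HSP90B1, HSPA8 and HSP90AA1. The ticks lie in the middle of each distribution, between -0.22 and 0.31 in HT29 and between -0.25 and 0.17 in LIM1215; genes beyond 1.5 on either side, 207 and 197, are not drawn.

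Of 20 relatives of these chaperones in the ER and cytosol, 5 in each line differed by 1.5-fold and 15 did not. Over all genes tested, 7.87% were higher and 6.91% lower by 1.5-fold in HT29, and 6.63% and 6.18% in LIM1215. HSPA5 (BiP), the HSP70 of the ER, had 1305 FPKM in HT29 control cells and 398 after knockdown, and 894 and 264 in LIM1215. HSPA8, the constitutive cytosolic HSP70, had 813 and 977 in HT29, and 943 and 1461 in LIM1215. HSPA9 lay between these opposite differences, with log2 ratios of -0.13 and -0.05, against -1.71 and -1.76 for HSPA5 and 0.26 and 0.63 for HSPA8. The level of HSPA9 per length was 0.265 times that of HSPA5 in the HT29 control and 0.794 times in the knockdown. In LIM1215 it went from 0.438 to 1.44 times, so the FPKM of HSPA9 exceeded that of HSPA5 in that knockdown library alone of the 4.

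In the HSP90 family, too, the ER member was lower and a cytosolic member higher. HSP90B1 (GRP94), the ER member, had 1184 and 474 FPKM in the HT29 pair and 813 and 378 in the LIM1215 pair, log2 ratios of -1.32 and -1.103. HSP90AA1, the inducible cytosolic member, had 471 and 706, then 366 and 540.1, log2 ratios of 0.58 and 0.56. TRAP1, with 0.31 and 0.01, lay between them in both lines. HSP90AB1, the constitutive cytosolic form, had 0.12 and 0.10, which was below TRAP1 in HT29 and above it in LIM1215.

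**Figure D4:**
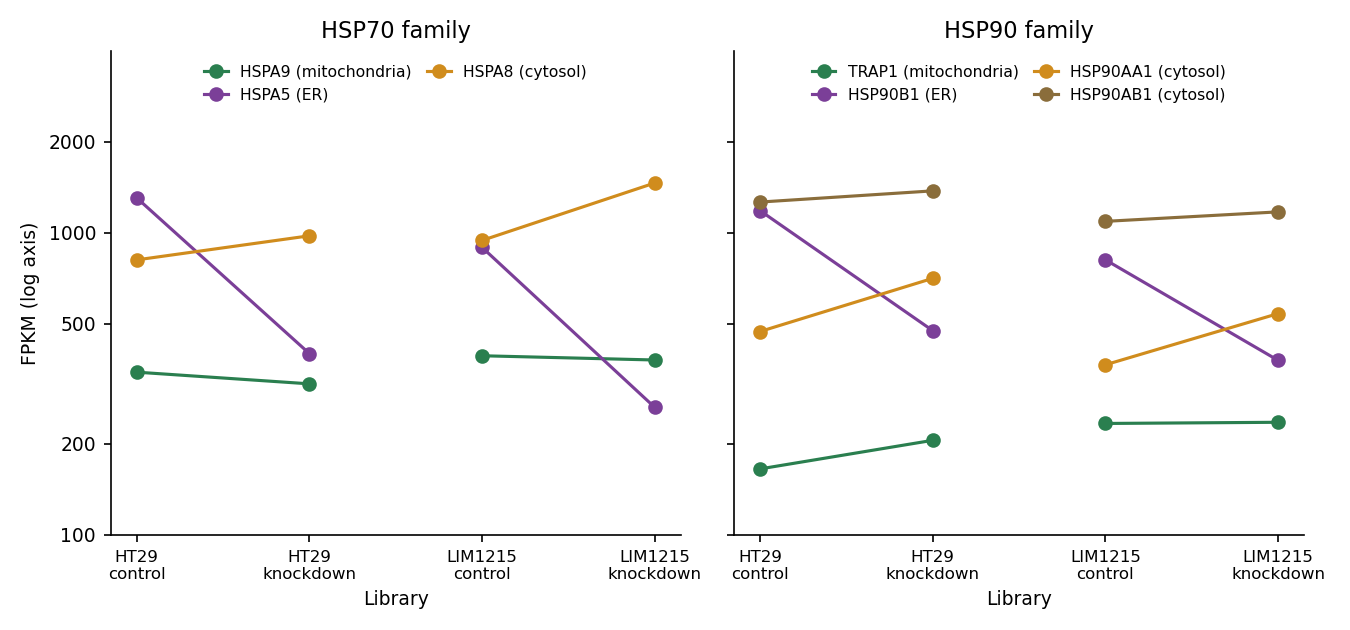
FPKM (log axis) of HSP70 genes (left) and HSP90 genes (right) in control and knockdown libraries of each line, green for the mitochondrial, purple for the ER and brown or orange for cytosolic members. The purple lines slope down steeply, for HSPA5 from 1305 to 398 and from 894 to 264. The green lines are flatter, the steepest being TRAP1 in HT29 from 165 to 206.

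Among partners, the log2 ratios of the ER exchange factor HYOU1 were -1.02 (HT29) and -1.06 (LIM1215), and those of the ER J-protein DNAJB11 were -1.11 and -0.95. GRPEL1 and DNAJA3, their mitochondrial counterparts, stood at 0.16 and 0.06 in HT29 and at -0.25 and -0.14 in LIM1215. SIL1, another exchange factor of the ER, had 0.16 and -0.01, unlike HYOU1. DNAJA1, a cytosolic J-protein related to DNAJA3, had 0.51 and 0.50, DNAJA2 0.32 and 0.14. The 8 subunits of CCT, the cytosolic chaperonin, had a median of -0.19 in both lines, with 7 of 8 lower in HT29 and 6 of 8 in LIM1215. CCT3 was higher in both lines (0.54 and 0.37), and TCP1 in LIM1215 (0.02), a value that turned negative under other scalings. The stress-inducible HSPA1B had 0.69 and 0.38, and HSPA1A was low, at 1.32 to 2.29 FPKM. Those past 1.5-fold were 1 higher and 4 lower in each line.

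The other genes of mitochondrial protein handling were examined next, from lists chosen with earlier results of these data known. Of 9 further chaperones and HSP70 partners, none passed 1.5-fold in either line, and the medians were 0.08 in HT29 and -0.05 in LIM1215; the HT29 median turned negative at the lowest of the other scalings. The extremes were BCS1L, an AAA chaperone of complex III assembly (0.40), and DNAJC19, a J-protein of the import motor (-0.35), in HT29. In LIM1215 they were DNAJC19 (0.22) and DNAJC15, another J-protein of the motor (-0.33). The same J-protein, DNAJC19, was therefore lowest of the list in one line and highest in the other.

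Of 14 genes of protein import and presequence processing, 1 passed 1.5-fold, TOMM20 in LIM1215, and it no longer did at the lowest of its values under other settings (0.58, just below the threshold). TOMM20, the presequence receptor of the outer membrane, had 138 and 180.3 FPKM in HT29 (log2 ratio 0.38) and 159 and 243 in LIM1215 (0.61). It was the highest of the list in both lines. The lowest were PMPCB, a subunit of the presequence peptidase, in HT29 (-0.38) and TIMM17A, a channel subunit of the inner membrane, in LIM1215 (-0.20). The list's medians were 0.04 and -0.02, the first changing sign under other scalings.

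The prohibitins and inner membrane proteases had 1 of 7 genes past 1.5-fold in each line, PHB2. PHB2, a scaffold of the inner membrane, had 252 FPKM in HT29 control cells and 44.4 after knockdown, and 313 and 51.6 in LIM1215, log2 ratios of -2.48 and -2.58. PHB1, with which PHB2 forms a ring complex, had 0.01 and -0.11; it was picked out after its values were seen. The highest of this list were PARL in HT29 (0.06) and SPG7 in LIM1215 (0.33). A gene of the inner membrane thus lay at 17.6% and 16.5% of control in libraries in which none of the 10 matrix and intermembrane space genes differed by 1.5-fold.

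Regulators of the stress response were then compared. ATF4, the transcription factor through which mitochondrial stress raises its target genes, had 527 and 506 FPKM in HT29 and 597 and 534 in LIM1215, log2 ratios of -0.06 and -0.16. ATF5, linked to induction of the mitochondrial chaperones, was at 9.19 and 9.44 FPKM in HT29 and 29.7 and 29.4 in LIM1215. DDIT3 (CHOP) was the regulator that differed by 1.5-fold, with 129.6 and 46.9 FPKM in HT29 and 57.6 and 20.6 in LIM1215, log2 ratios of -1.45 and -1.44. HSF1, the heat shock factor, had 0.35 and 0.07, and CEBPB, the partner of CHOP, 0.20 and -0.38. DELE1 and EIF2AK1 (HRI), which relay mitochondrial stress to the cytosol, had -0.13 and -0.30 in HT29 and 0.03 and 0.02 in LIM1215, the LIM1215 values changing sign under other scalings. DDIT3 was thus lower in both lines while the 10 genes stayed within 1.5-fold.

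Stress output genes, which include targets of ATF4 and the mitochondrial folate enzymes, were mostly lower. Of 13, 11 passed the filter, and 8 of these were lower in each line, with medians of -0.11 in HT29 and -0.15 in LIM1215. Of all 14803 genes tested, 6566 were lower in HT29 and 6870 in LIM1215. The 8 in HT29 include a gene at 99.95% of control (96.7% to 103%). SHMT2, the mitochondrial serine hydroxymethyltransferase, was lowest of the list in both lines. It had 148 and 82.6 FPKM in HT29 and 285 and 147 in LIM1215 (log2 ratios -0.83 and -0.95). PCK2, the mitochondrial phosphoenolpyruvate carboxykinase, also passed 1.5-fold in HT29 (-0.64), but not at the smallest of its values under other settings (-0.5796). CHAC1 (-0.58) and GDF15 (-0.56) came close to the threshold in HT29 and passed it under other scalings, at -0.69 and -0.68. CHAC1 was picked out after its values were seen. The highest were PHGDH in HT29 (0.21) and GDF15, a secreted stress cytokine, in LIM1215 (0.19). FGF21, a second secreted marker, did not reach the filter, at 1.37 and 0.271 FPKM in HT29 and 1.0998 and 0.217 in LIM1215. No output gene was higher by 1.5-fold in either line.

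Genes whose transcripts reflect mitochondrial content served as a reference for the chaperones. None of 10 such genes passed 1.5-fold, and the medians were -0.08 in HT29 and -0.04 in LIM1215. The extremes were HADHA (0.26) and TFAM (-0.35) in HT29 and HADHA (0.38) and VDAC2 (-0.27) in LIM1215. The 13 protein genes of mitochondrial DNA had medians of -0.04 and -0.22, and all 13 were lower in LIM1215 against 10 in HT29. Of all 14803 genes tested, 6870 were lower in LIM1215 and 6566 in HT29. Some of the 13 lay close to no change, and the highest in LIM1215 was at 99.9% of control (99.4% to 100.4%). In bulk RNA, fewer mitochondria per cell and fewer transcripts per mitochondrion cannot be told apart.

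**Figure D5:**
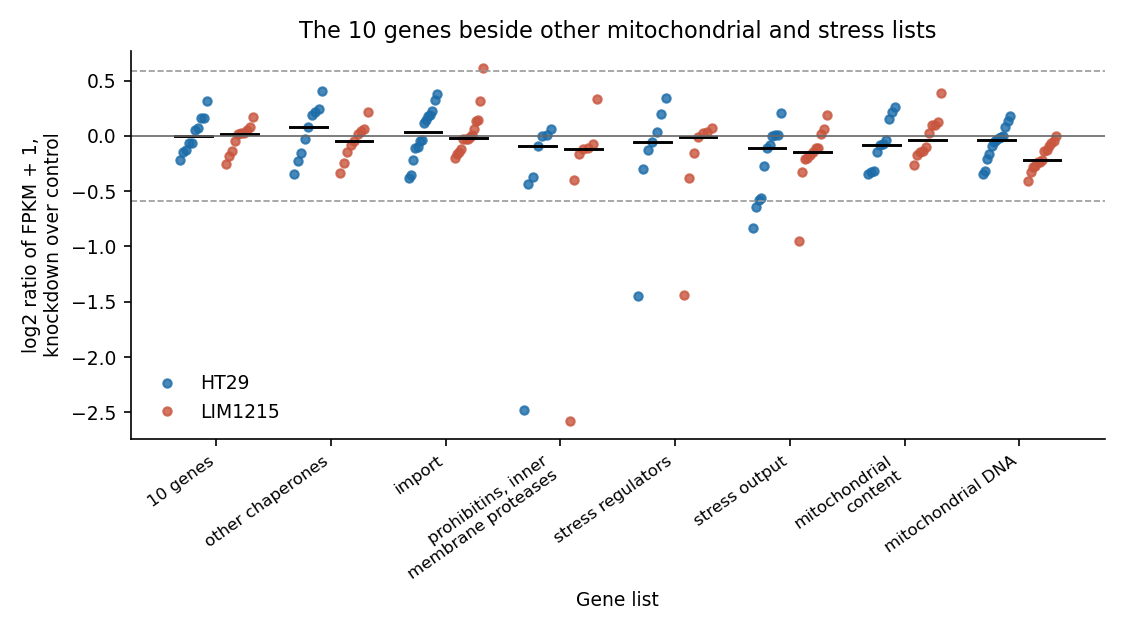
Log2 ratio of FPKM + 1, knockdown over control, for each gene of 8 lists (points, blue for HT29 and red for LIM1215), with the median as a black bar and 1.5-fold as dashed lines. The 10 genes lie between the dashed lines, the lowest points are PHB2 at -2.48 and -2.58, and DDIT3 and SHMT2 lie below the lower line in both lines.

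The lines themselves differed more than the siRNA groups did. All 10 genes were higher in the LIM1215 than in the HT29 control, although CLPX turned lower under each of 4 other scalings and HSPA9 under 1. Of all 14803 genes tested, 7943 were higher. Other mitochondrial lists leaned the same way, with 9 of 10 content genes, 7 of 9 further chaperones and 12 of 14 import genes higher. Their medians were 0.38, 0.36 and 0.27. Of the 20 relatives in the ER and cytosol, 5 were higher and 15 lower. LONP1 showed the largest difference, 193% of the HT29 level (186% to 200.4%), followed by CLPP at 157% (149% to 164%). These 2 passed 1.5-fold higher and none passed it lower, against 21.8% of all genes higher and 16.3% lower, and CLPP did not pass it under 3 other scalings. The remaining genes except HSPA9 and CLPX stood between 134% and 143%, while HSPA9 was at 113% and CLPX at 101%. The median log2 ratio was 0.49, beside 0.05 over all genes. Rescaling to a common sum lowered the median over all genes by 0.16 and brought that of the 10 to 0.31. The same 10 genes were also higher in the LIM1215 than in the HT29 knockdown library, with a median of 0.31. GRPEL1 was at 101.5% there, with a counting interval of 97.3% to 105.9% that included no change. Other scalings were not tried for this pair of libraries.

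The order of levels was stable across libraries. HSPD1 came first, TRAP1 at place 4, CLPX at place 9 and HTRA2 last in every library. HSPA9 exceeded HSPE1 in the HT29 control (346 against 321 FPKM) and HSPE1 exceeded HSPA9 in the other 3 libraries. GRPEL1, LONP1, CLPP and DNAJA3 filled places 5 to 8, with place 5 taken by GRPEL1 in HT29 and by LONP1 in LIM1215. With 1 library per group, the spread needed to say which neighbours in this order differ was not available.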

How the data were processed

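Per the labels' protocols, column-purified total RNA went into stranded mRNA libraries. The authors deposited 1 FPKM table per library, per the file headers. The submitters' processing notes name HISAT2 2.1.0, SAMtools 1.20, Cufflinks 2.2.1, Cuffdiff and the build GRCh38; annotation, filters and strand settings are not given in the sources used here. The values are scaled to gene length and library total, so an abundant RNA class can shift all others; how fragments of overlapping or similar genes were assigned is not given.

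Symbols, positions and canonical lengths came from GENCODE release 44, which matched 56550 of 60658 identifiers. From the steps of low FPKM values in genes with 1 transcript of at least 500 bases, fragments per library were estimated; 80.5% to 82.8% of these values fell within 0.03 of a whole number, against 6% without steps. The estimate was tested only on data simulated from the same model for genes with 1 transcript. Such data cannot show how well it holds for genes with several transcripts or overlaps. Log2 ratios used a pseudocount of 1, with no test, since each group had 1 library. Named genes were the 10 members, the largest rise and fall of each list per line, all stress regulators and all relatives. From the lists, CHAC1, FGF21, PCK2 and PHB1 were named outside this rule. The members and lists were chosen with earlier results of these data known. Promoter motifs were chosen after the values were seen. Alternatives were pseudocounts of 0.1 and 5, other filters, 4 scalings, the mean in place of the median and a 2-fold threshold. Software was Python 3.11.15 with pandas 2.3.3.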

Additional observations from a re-analysis of the deposited data

Results flagged for a closer look

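Values of members, lists and genes under the naming rule with opposite signs in the lines are given here with the difference of their log2 ratios, LIM1215 minus HT29. With 1 library per group none of these differences was tested, and opposite signs close to 0 need little to arise. Among the 10 genes the difference was -0.41 for GRPEL1, -0.19 for DNAJA3, 0.22 for CLPP, 0.24 for CLPX and 0.23 for HTRA2. The counting intervals of GRPEL1 and CLPP excluded 100% of control in both lines, on opposite sides. Those of DNAJA3 and HTRA2 included it in HT29 and that of CLPX in LIM1215. The median of the 10 genes differed by 0.0203 (-0.0028 and 0.02).

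Of the lists, further chaperones and HSP70 partners differed by -0.13 (0.08 and -0.05), and import and presequence processing by -0.0565 (0.04 and -0.02). Among chaperones and import genes, BCS1L differed by -0.65, DNAJC19 by 0.56, SIL1 by -0.17 and TCP1 by 0.16. Other genes of the lists with opposite signs are not named. Among prohibitins and inner membrane proteases, PARL differed by -0.14 and SPG7 by 0.34, and PHB1, outside the naming rule, by -0.12. Among stress regulators and output genes, ATF5 differed by -0.0473, CEBPB by -0.58, DELE1 by 0.16, EIF2AK1 by 0.32, PHGDH by -0.35 and GDF15 by 0.76. GDF15 had the largest difference of these, from a log2 ratio of -0.56 (HT29) to 0.19 (LIM1215).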

How the results depend on the processing

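No paired analysis was possible because each comparison within a line had 1 library per side. A fit over both lines with the line as a block, which would treat the lines as replicates, was not run. No member passed 1.5-fold lower or higher under any alternative tried, and the 160 recomputed knockdown log2 ratios lay between -0.33 and 0.31. Of these, 135 moved by less than their counting error and 25 by more, all under another scaling or centring. The other filters cannot change a member's own log2 ratio, so the values under them were the same by construction. The 135 therefore overstates how stable the ratios were. The HT29 median of the members moved from -0.0028 to -0.0817 with all libraries brought to a common sum, and to -0.1128 when that sum left out genes of mitochondrial DNA; both rescalings shift all genes of a library alike. The LIM1215 median lay between -0.0164 and 0.02 over the other scalings and pseudocounts. The mean of the members in place of the median was 0.0156 in HT29 and -0.0260 in LIM1215. Of the 2 members higher by 1.5-fold in the LIM1215 control, 1 was past that fold with a common sum, 1 with upper quartile scaling, and 1 with a common sum outside mitochondrial DNA; the last 2 were added after the data were seen. Among the 4183 genes with a mean of at least 30 FPKM, an added restriction near the level of the members, 5.26% were higher and 3.61% lower by 1.5-fold in HT29, and 3.23% and 3.18% in LIM1215. With 1 library per group, variation between cultures could not be measured.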

Other observations

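MOB4, the gene next to HSPE1 on the same strand, had 17.3 FPKM in HT29 control cells and 8.69 after knockdown, and 13.9 and 8.06 in LIM1215. The readthrough gene HSPE1-MOB4 followed it in HT29, from 12.7 to 6.06, but not in LIM1215, from 7.08 to 7.07. HSPE1 itself had log2 ratios of 0.07 and 0.02. How the fragments shared by these 3 genes were divided was not tested.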
